A study of Mus musculus with 6 samples.

Results

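Cholesterol synthesis and its control by SREBP2 were followed through 28 genes in mouse liver tumours, chosen by name from the 43346 genes of the deposited table. All 28 were found by symbol and all passed the filter on low counts, which kept 18359 genes. They comprise 19 enzymes of the route from acetyl-CoA to cholesterol and its isoprenoid branch, 4 genes of the SREBP2 sensing machinery and 5 genes of sterol transport, uptake and esterification. Other enzymes and targets of the same pathway are not analysed here.

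RNA sequencing was done on liver tumours induced with DEN (diethylnitrosamine), a carcinogen activated in hepatocytes. Both groups came from mice that overexpress SULF2, an extracellular sulfatase acting on heparan sulfate, and carry the strain name Sulf2-TTR. One group of 3 tumours had wild-type Gli1 (WT) and the other 3 had Gli1 knocked out (KO), Gli1 being a transcription factor of the Hedgehog pathway. The labels give no age, sex, strain background, promoter of the transgene or extent of the deletion, and there were no non-tumour or non-transgenic livers, so overexpression is known here from the labels only. They also do not say that each tumour came from its own animal, so p-values measure the spread between these samples only.

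Cholesterol is made from acetyl-CoA through mevalonate, the isoprenoid units, squalene and lanosterol, and the liver is a main site of its synthesis. SREBP2, the product of Srebf2, is held in the endoplasmic reticulum by SCAP and the INSIG proteins when sterols are plentiful. When sterols fall, SCAP escorts SREBP2 to the Golgi, where proteases free the fragment that activates genes of synthesis and uptake. NF-Y, which binds the sequence CCAAT, is a known partner of SREBP2 at these promoters.

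Libraries held 75205624 to 132979502 counted reads, of which 114962 to 498492 fell on the 28 genes. Gli1 was at the edge of detection, with 10, 20 and 7 reads in WT replicates 1, 2 and 3 and 4, 3 and 3 in the KO replicates. Sulf2 ranged from 2.63 to 164.5 CPM (reads scaled to the normalised library size), with its highest value in KO replicate 1 and its lowest in KO replicate 2. Summed CPM of 8 hepatocyte markers, Alb among them, ranged from 155550 to 196905 in WT and from 138970 to 159733 in KO, so hepatocyte RNA was abundant in every tumour. WT replicate 3 and KO replicate 1 stood apart on the first principal component of all genes, which held 42.7% of the variance, at 80.9 and 65.2, with the other 4 tumours between -67.9 and -6.95. The comparison of genotypes is therefore given also without these libraries.

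The promoters of 3 members are shown, each holding at least 1 of the sequences searched for, which SREBP2 or NF-Y is known to bind. Among members named by rule (below) with such a promoter, they had the widest spread over the 6 tumours. The SD of their log2 CPM was 1.19 for Hmgcs1, 1.10 for Lss and 0.58 for Insig1, so the choice used these data. The genes belong to the first step after acetoacetyl-CoA, the closure of the sterol ring and the feedback arm. Sequences are from RefSeq (GRCm38.p6, all on the plus strand), 5′ to 3′, ending before the RefSeq start or, where it lies further upstream, the deposited start of the gene. Capitals mark CACCCCAC, a sterol regulatory element core, and CCAAT, which reads ATTGG where it lies on the opposite strand. Hmgcs1 is at chr13:119690101-119690350, Lss at chr10:76531355-76531587 and Insig1 at chr5:28071162-28071362.
Hmgcs1: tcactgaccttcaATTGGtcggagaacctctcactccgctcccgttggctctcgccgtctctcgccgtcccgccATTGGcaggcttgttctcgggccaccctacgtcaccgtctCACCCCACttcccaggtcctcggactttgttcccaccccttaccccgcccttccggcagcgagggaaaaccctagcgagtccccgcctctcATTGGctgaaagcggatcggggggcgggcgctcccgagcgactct
Lss: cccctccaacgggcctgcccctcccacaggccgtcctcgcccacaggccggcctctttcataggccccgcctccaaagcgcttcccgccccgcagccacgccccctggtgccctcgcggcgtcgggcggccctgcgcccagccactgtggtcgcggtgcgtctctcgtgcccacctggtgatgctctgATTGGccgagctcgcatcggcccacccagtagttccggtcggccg
Insig1: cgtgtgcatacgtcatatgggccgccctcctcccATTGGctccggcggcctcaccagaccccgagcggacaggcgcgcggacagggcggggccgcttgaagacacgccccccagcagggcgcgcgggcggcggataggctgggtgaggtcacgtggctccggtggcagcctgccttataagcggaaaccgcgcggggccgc

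In Hmgcs1 the CACCCCAC lies 136 to 129 bases before the RefSeq start, with 3 CCAAT sequences on the opposite strand, the nearest at 45 to 41 bases. Lss and Insig1 each hold 1 CCAAT on the opposite strand, at 62 to 58 and at 216 to 212 bases. Promoters of 22 of the 28 members were matched. Within 250 bases upstream, on either strand, CCAAT was found in 18 of the 22 (81.8%), against 33.8% of 32851 promoter windows of the same length. CACCCCAC was found in 2 (9.09%, Acat2 and Hmgcs1) against 2.58% of all windows, and its shorter core ACCCCAC, which it contains, in 3 (13.6%, with Nsdhl) against 5.44%. ACCCCAC and CCAAT occurred together in 2 members (9.09%) and in 1.57% of all windows. These are matches of letters and not binding sites, and no binding was measured here.

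No member of the pathway passed the comparison of Gli1 KO with WT tumours. By edgeR's quasi-likelihood test 0 of 28 passed an FDR of 0.05, as did 0% of the 18359 genes tested. At an unadjusted p under 0.05 there was 1 member, Mylip, against 3.62% of all genes. DESeq2 also called 0 members (0.345% of genes tested). At an unadjusted DESeq2 p under 0.05 there was 1 of 28 members, against 950 of the 18359 genes. The limma voom test called 0 members, with or without sample quality weights (0% of genes in each). The log2 fold changes (KO minus WT, given below ± an SE derived from the test's F statistic, n = 3 per group) were positive for 23 of 28 members (82.1%) and for 48.2% of all genes. Their median was 0.26, against -0.01 over all genes, and the edgeR FDR was 0.9997 for each member.

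This lean toward KO was lost without KO replicate 1 or without WT replicate 2, and stayed in the other fits that leave out libraries. Without KO replicate 1 only 11 members were positive and the median was -0.11. Without WT replicate 2 there were 13, with a median of -0.03. Without WT replicate 3 there were 26, with a median of 0.78, 9 members at an unadjusted p under 0.05 and 0 past FDR 0.05. The matching shares of all genes were not computed for the fits that leave out libraries. The members at an unadjusted p under 0.05 and the positive counts of these fits therefore have no background beside them. The median was 0.16 without WT replicate 1 and 0.48 without KO replicate 2, with 21 and 24 positive. Without KO replicate 3 it was 0.31, with 25 positive. Leaving out both WT replicate 3 and KO replicate 1 gave 26 positive and a median of 0.35. In that fit 6 members had an unadjusted edgeR p under 0.05, again with 0 past FDR 0.05. The sign changed in at least 1 of these 6 single-library fits for 19 of the 28 members.

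**Figure D1:**
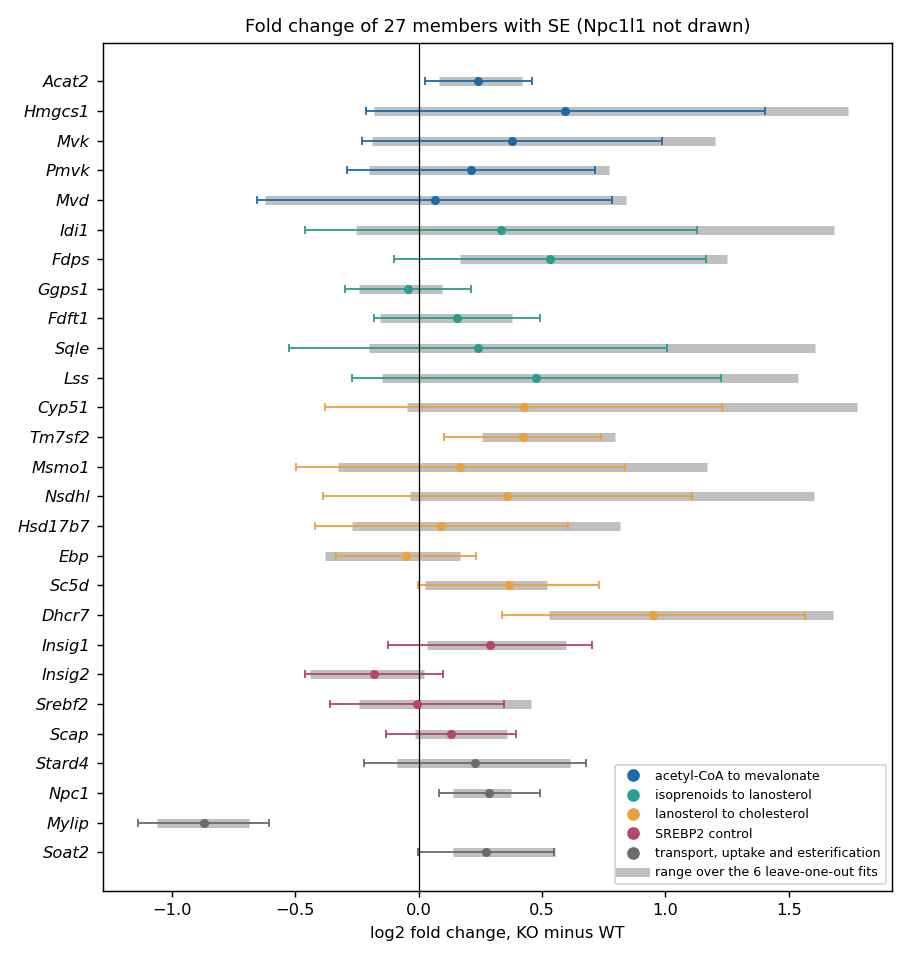
Log2 fold change, KO minus WT, of 27 members, with the SE derived from the test's F statistic as error bars (n = 3 per group). Grey bars show the range over the fits that each leave out 1 of 6 libraries. Mylip lies lowest at -0.87 and Dhcr7 highest at 0.95, and the widest grey bars belong to enzymes of synthesis. Npc1l1, at 0.81 ± 2.19, is off this scale and not drawn.

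The summed level of the enzymes differed less between the genotype means than the SD within either genotype. Summed over the 19 enzymes, WT replicates 1, 2 and 3 had 1455, 894 and 3383 CPM and KO replicates 1, 2 and 3 had 3729, 1506 and 2217. Replicate 3 was the high tumour of the WT group and replicate 1 that of the KO group, and the genotypes overlapped over the 6 tumours. Without that pair the KO tumours were above the WT tumours. The means were 1911 ± 1306 CPM in the WT tumours and 2484 ± 1136 in KO (SD, n = 3 each), a ratio of 1.3. The highest tumour had 3.78 times the lowest within WT and 2.48 times within KO. In bulk tissue, fewer cells of a type and less RNA per cell cannot be told apart.

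The members tended to be high and low in the same tumours. WT replicate 3 and KO replicate 1 were the highest pair for 17 of 28 members (60.7%), a pair that was highest for 15% of all genes tested. WT replicates 1 and 2 were the lowest pair for 12 members (42.9%) and for 11.6% of all genes. Both held for 11 members (39.3%) and for 4.83% of all genes. This pair of tumours was singled out after its values were seen and is the same that stood apart over all genes, so the shares are a description. The median member was 2.73 times higher in WT replicate 3 than in WT replicate 2, higher for 25 of 28. It was 2.12 times higher in KO replicate 1 than in KO replicate 2, higher for 23 of 28. Between the high tumours of either genotype, KO replicate 1 over WT replicate 3, the median ratio was 1.09.

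WT replicate 2 was the lowest of the 6 tumours for 18 members (64.3%, against 19.9% of all genes), 15 of them among the 19 enzymes. KO replicate 1 was the highest for 12 members (42.9%, against 16% of all genes) and the lowest for 0 (14.6% of all genes). WT replicate 3 was the highest for 8 (28.6%), near its share of all genes (22.2%). KO replicate 3 lay between the extremes, with 20 members above their own median over the 6 tumours, and exceeded KO replicate 2 for 20 of 28. The median member also spread more than genes in general, its highest tumour being 3.11 times its lowest, against 2.06 times for the median of all genes.

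**Figure D2:**
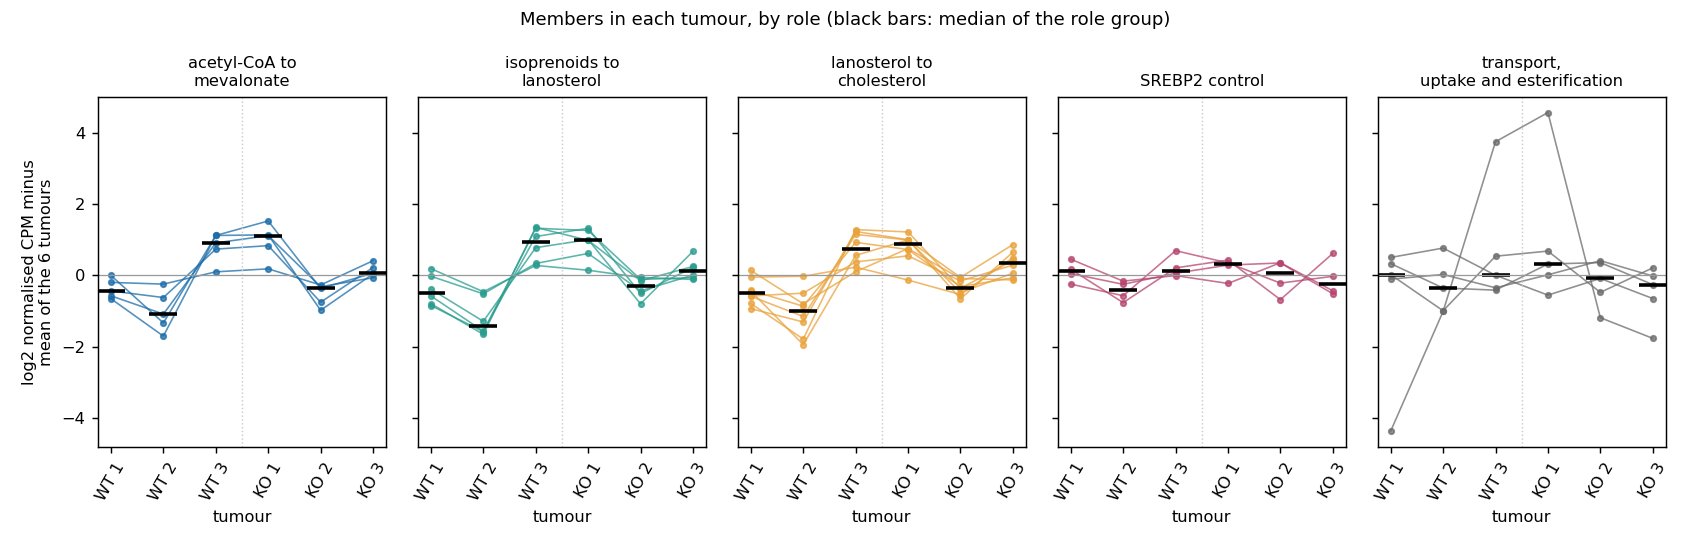
Log2 normalised CPM of each member minus its own mean over the 6 tumours, one line per member, in 5 panels by role. Black bars are the medians of each panel. The 3 panels of enzymes share a dip in WT replicate 2 and peaks in WT replicate 3 and KO replicate 1, while the lines of the control and transport panels cross.

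**Figure D3:**
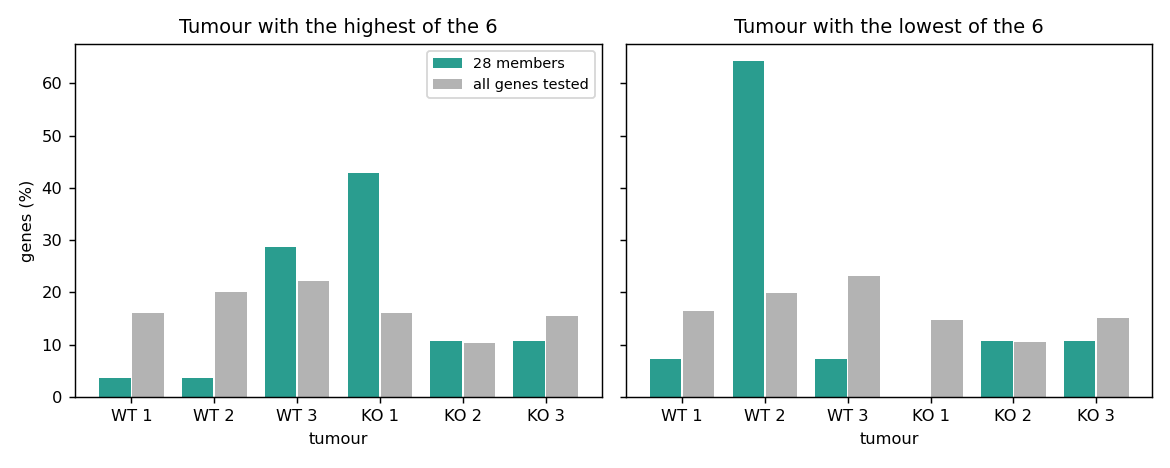
Percent of the 28 members (green) and of the 18359 genes tested (grey) that had their highest value (left) or lowest value (right) in each tumour. Members were most often highest in KO replicate 1 (12 of 28) and lowest in WT replicate 2 (18 of 28).

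Markers of other cells moved with this order in part. The 5 proliferation markers summed to 15.6, 8.36 and 40.4 CPM in WT replicates 1, 2 and 3. In the KO replicates they summed to 33.6, 13.4 and 89.4. By this sum WT replicate 3 and KO replicate 1 were high too, but KO replicate 3 was highest. Mcm6 was an exception, high only in KO replicate 3 at 37.2 CPM. It had 6.80 CPM in WT replicate 3 and 7.42 in KO replicate 1, close to 6.50 in WT replicate 1 and 7.28 in KO replicate 2. The 5 cholangiocyte markers summed to 79.9, 38.8 and 479 CPM in the WT tumours and 433, 75 and 472 in KO. WT replicate 3 was among the highest pair for 5 of these 5 markers and KO replicate 1 for 4 of 5, with Spp1, the osteopontin gene, making up most of the sum. The defining duct keratin Krt19 reached no more than 3.04 CPM, and no marker of these lists was at 0 in all tumours. The 6 stellate cell and fibroblast markers summed to 101, 124 and 224 CPM in WT replicates 1, 2 and 3 and to 356, 213 and 220 in the KO replicates, with the same highest pair and lowest pair of tumours as most enzymes. Col3a1 and Col1a1, the fibrillar collagens, were highest in KO replicate 1 and lowest in WT replicate 2. Des and Pdgfrb were highest in KO replicate 1 and lowest in WT replicate 1. Dcn went the other way, highest in WT replicate 2 at 92.3 CPM and lowest in KO replicate 1 at 49.5. Lrat was highest in KO replicate 2 and lowest in WT replicate 3. KO replicate 1 was among the highest pair for 4 of these 6 markers and WT replicate 3 for 1. The part of these cells in the spread of the sterol enzymes was not tested. The 8 hepatocyte markers, most of whose sum is Alb, summed to 196905, 155550 and 194775 CPM in WT replicates 1, 2 and 3 and to 138970, 159733 and 148481 in the KO replicates. Of these 8, 4 were highest in WT replicate 2 and 0 in KO replicate 1, although Apoa1 was lowest in WT replicate 2 and highest in WT replicate 3.

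Per gene length, in the authors' deposited RPKM, the median over tumours was highest for Sc5d (117), Fdps (96.1), Insig1 (64.7) and Hmgcs1 (60.8). It was lowest for Npc1l1 (0.0359), Ggps1 (2.21) and Mylip (2.69). Hmgcs1 ranged from 18.6 to 203 RPKM and Sc5d from 65.8 to 223, so their ranges overlapped.

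Among the 5 genes from acetyl-CoA to mevalonate and its phosphates, all had positive fold changes, with a median of 0.24, and 0 passed. Hmgcs1 (chr13:119690462-119708086), the cytosolic HMG-CoA synthase and a classical SREBP2 target, had 148, 71.3 and 508 CPM in WT replicates 1, 2 and 3 and 674, 181 and 243 in the KO replicates. Its 9.46-fold range over tumours was the widest of the enzymes, and its genotypes overlapped, with a log2 fold change of 0.59 ± 0.81. Acat2 (chr17:12942890-12960747), the thiolase that joins acetyl-CoA units, had 42.4, 41.0 and 52.1 CPM in the WT tumours and 55.2, 40.3 and 64.7 in KO. It was the steadiest of the enzymes at a 1.61-fold range, with a log2 fold change of 0.24 ± 0.22. Its close paralog Acat3 lies beside it with 69.8 to 144 CPM, highest in WT replicate 2 and lowest in KO replicate 1, so reads of the pair may be split between them. The kinases Mvk and Pmvk had log2 fold changes of 0.38 ± 0.61 and 0.21 ± 0.50, and the decarboxylase Mvd had 0.07 ± 0.72. Mvk ran from 8.39 CPM in WT replicate 2 to 38.8 in KO replicate 1. Mvd lies within the span of another counted gene, Gm20388, so its reads are less certain.

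The 6 genes from isoprenoid units to lanosterol had the widest median range of the groups, 6.19-fold. Fdps (chr3:89093592-89101967), which makes farnesyl diphosphate, had 91.5, 48.8 and 205 CPM in the WT tumours and 240, 68.6 and 191 in KO. Replicates 1 and 3 of the KO group were high together, but KO replicate 2 lay below WT replicate 1, and the log2 fold change of 0.53 ± 0.63 did not pass. Sqle (chr15:59315077-59331192), squalene epoxidase and a rate-controlling step after mevalonate, had 78.6, 43.2 and 348 CPM in the WT tumours and 271, 123 and 162 in KO. WT replicate 3 held its highest value and WT replicate 2 its lowest, so the WT group enclosed the KO group, at 0.24 ± 0.77. Lss (chr10:76531588-76557138), lanosterol synthase, had 67.6, 34.0 and 216 CPM in the WT tumours and 253, 71.0 and 118 in KO. The WT values of this gene spread 6.35-fold, and its log2 fold change was 0.48 ± 0.75.

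Idi1, the isomerase of isopentenyl diphosphate, spread 7.53-fold, from 34.2 CPM in WT replicate 2 to 257 in WT replicate 3, with a log2 fold change of 0.33 ± 0.79. Fdft1, squalene synthase, spread only 2.2-fold, at 0.16 ± 0.34. Ggps1, which makes geranylgeranyl diphosphate on a branch away from sterols, had 4.32 to 7.23 CPM and a log2 fold change of -0.04 ± 0.26. It was the only gene of this group whose highest pair of tumours was not WT replicate 3 and KO replicate 1. Its highest pair was WT replicates 3 and 1. Fdft1 overlaps the end of Ctsb, counted at 37127 to 63578 reads, Ggps1 overlaps Arid4b, and Lss overlaps 4930483K19Rik. No source used here says whether counting used strand, so reads in these overlaps cannot be told apart.

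Among the 8 genes from lanosterol to cholesterol, 7 had positive fold changes, with a median of 0.36. Dhcr7 (chr7:143823145-143848410), 7-dehydrocholesterol reductase, the last step of one branch, had the largest fold change of the 28 members. It had 81.3, 28.5 and 163 CPM in the WT tumours and 220, 106 and 201 in KO. WT replicate 3 lay within the KO range and the other WT tumours below it, at a log2 fold change of 0.95 ± 0.61, which was 0.53 without WT replicate 2 and 1.68 without WT replicate 3. Tm7sf2 (chr19:6062821-6068373), a sterol C14 reductase, had 36.8, 38.9 and 71.5 CPM in the WT tumours and 80.6, 49.4 and 67.3 in KO. Here too WT replicate 3 fell among the KO tumours, with a log2 fold change of 0.42 ± 0.32.

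Cyp51, the lanosterol demethylase, spread 8.48-fold, from 35.8 CPM in WT replicate 2 to 304 in WT replicate 3, with a log2 fold change of 0.43 ± 0.80. The C4 demethylation enzymes Msmo1, Nsdhl and Hsd17b7 had log2 fold changes of 0.17 ± 0.67, 0.36 ± 0.75 and 0.09 ± 0.51, and all 3 were highest in WT replicate 3. Sc5d, the C5 desaturase, had 181 to 533 CPM, with WT replicate 1 second highest, at 0.37 ± 0.37. Ebp, the isomerase of the sterol ring, departed from this order, and its highest tumour was KO replicate 3 at 156 CPM and its lowest KO replicate 2 at 76.0. Its log2 fold change was -0.05 ± 0.28.

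**Figure D4:**
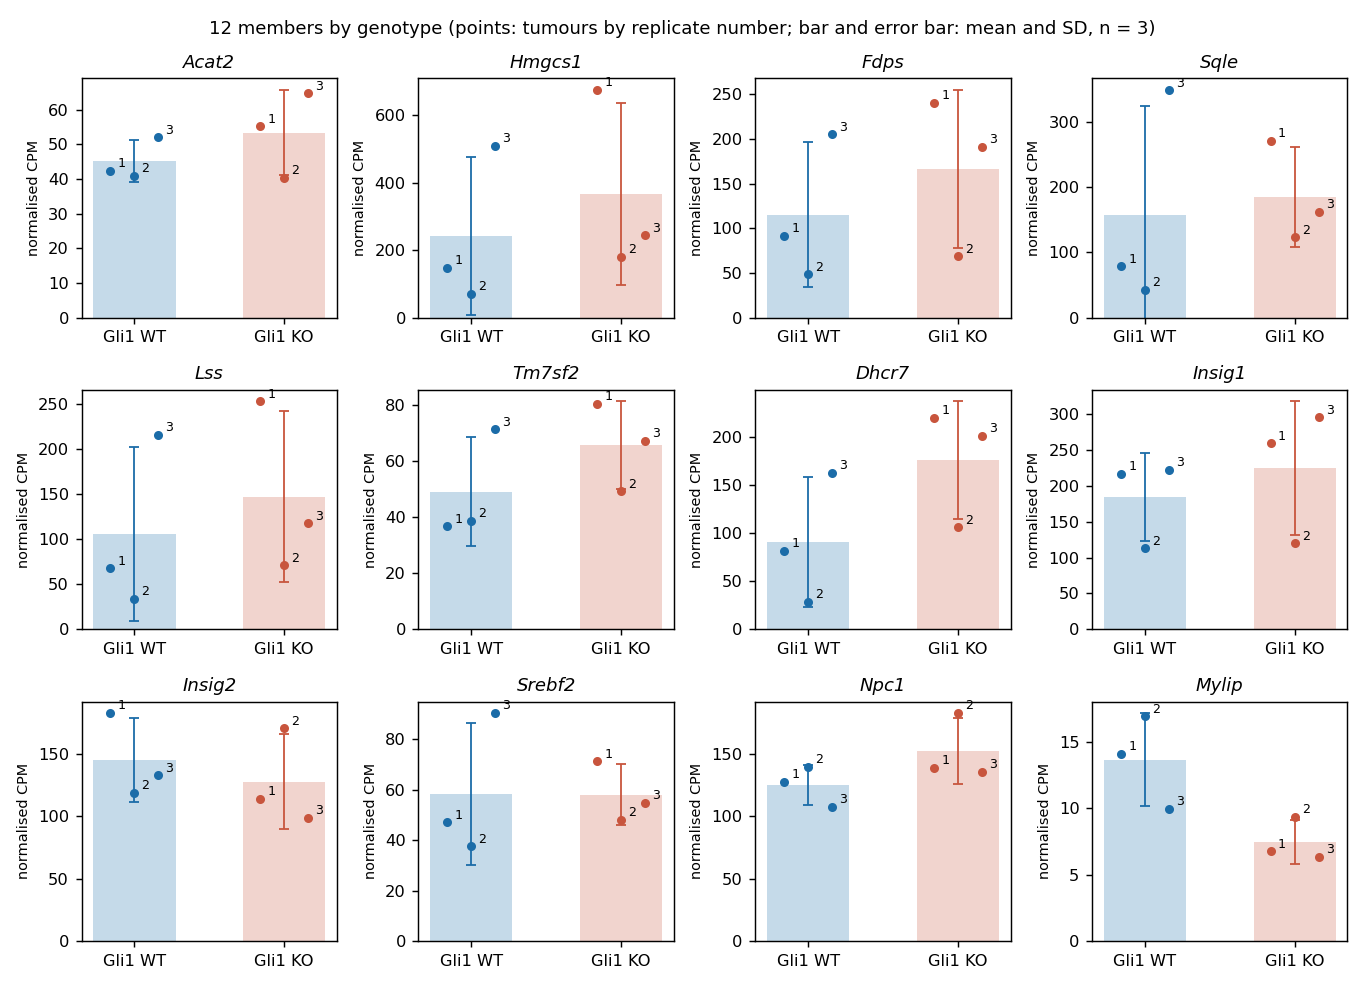
Normalised CPM of 12 members by genotype, with points for tumours marked by replicate number, bars for means and error bars for SD (n = 3, the bar of Sqle in WT being cut off at 0). In most panels WT replicate 3 lies among or above the KO tumours, and only in Mylip do the genotypes not overlap.

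The SREBP2 machinery varied less than the enzymes, with a median range of 2.13-fold against 4.93-fold, and 0 of its 4 genes passed. Srebf2 (chr15:82147266-82205376) had 47.1, 37.6 and 90.5 CPM in the WT tumours and 71.4, 48.1 and 54.9 in KO. It was high and low in the same tumours as most enzymes, with the same highest pair and lowest pair, and its log2 fold change was -0.01 ± 0.35. These are levels of the Srebf2 message and say nothing of how much of the protein was processed. Scap, the escort protein, had 68.5 to 125 CPM, with KO replicate 3 lowest and KO replicate 2 highest, at 0.13 ± 0.26.

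The INSIG genes went separate ways between tumours. Insig1 (chr5:28071363-28078662), an SREBP2 target that retains SCAP, had 217, 113 and 222 CPM in the WT tumours and 259, 120 and 295 in KO. Replicate 2 of each genotype was low and KO replicate 3 highest, with a log2 fold change of 0.29 ± 0.41. Insig2 (chr1:121304353-121332589), known to be under different control in liver, had 183, 119 and 133 CPM in the WT tumours and 114, 171 and 98.7 in KO. Its highest tumours were WT replicate 1 and KO replicate 2 and its lowest KO replicates 3 and 1, which were the highest pair for Insig1. Its log2 fold change was -0.18 ± 0.28. On deposited RPKM the ratio of Insig1 to Insig2 was 1.53, 1.22 and 2.16 in WT replicates 1, 2 and 3 and 2.93, 0.904 and 3.85 in the KO replicates, so the KO group held both the lowest and the highest ratio.

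Of the 5 genes of transport, uptake and esterification, Mylip was the only member of the 28 whose genotypes did not overlap. Mylip (chr13:45389742-45412019), also called IDOL, is a ubiquitin ligase induced by LXR that directs lipoprotein receptors to degradation. It had 14.1, 16.9 and 9.95 CPM in WT replicates 1, 2 and 3 and 6.74, 9.34 and 6.31 in the KO replicates. All 3 KO tumours were below all 3 WT tumours, as was the case for 3.96% of all genes, and the reverse, seen in 0 members, held for 4.15%. The log2 fold change was -0.87 ± 0.27 (edgeR FDR 0.9997) and ran from -1.06 to -0.69 when each library was left out. The unadjusted edgeR p was 0.0143, and a two-sided exact permutation test gave p = 0.1, the smallest that 3 against 3 tumours allow. Mylip was lowest in KO replicates 3 and 1 and highest in WT replicate 2, the tumour in which most enzymes were lowest. Summed markers of several other cell types were also below every WT tumour in every KO tumour. Neutrophil markers (4 of 5 tested) ranged from 9.13 to 33.2 CPM in the WT tumours and from 4.39 to 8.21 in KO, and T and NK cell markers (5 of 5) from 1.69 to 3.10 and from 0.869 to 1.46. B cell markers (4 of 4) ranged from 2.92 to 5.32 and from 1.22 to 2.40, and endothelial markers (6 of 6) from 185 to 234 and from 126 to 177. The 7 Kupffer cell and macrophage markers summed to 108, 369 and 224 CPM in WT replicates 1, 2 and 3 and to 67.3, 133 and 140.5 in the KO replicates, highest, like Mylip, in WT replicate 2. None of these markers was at 0 in all tumours, and their part in the difference in Mylip was not tested.

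Npc1 (chr18:12189693-12236400), which exports cholesterol from lysosomes, had 128, 140 and 108 CPM in the WT tumours and 139, 183 and 136 in KO, highest in KO replicate 2. WT replicate 2 lay within the KO range, and the log2 fold change was 0.29 ± 0.20. Stard4, a cytosolic sterol carrier and known SREBP2 target, followed the enzymes, from 62.5 CPM in WT replicate 2 to 200.3 in KO replicate 1, at 0.23 ± 0.45. Soat2, the sterol esterifying enzyme of hepatocytes and intestine, had 51.2 to 87.7 CPM, with WT replicates 3 and 2 lowest, at 0.27 ± 0.28.

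Npc1l1, the sterol uptake transporter of the intestine, was counted in almost only a pair of tumours, WT replicate 3 and KO replicate 1. It had 0, 15 and 534 reads in WT replicates 1, 2 and 3 and 1118, 23 and 9 in the KO replicates. Those are 6.0 CPM in WT replicate 3 and 10.6 in KO replicate 1, against at most 0.198 elsewhere, and the fitted log2 fold change of 0.81 ± 2.19 did not pass. Its value for WT replicate 1 is a count of 0, so no fold against that tumour is given. The same libraries stood apart over all genes, and the values of Npc1l1, Ebp, Idi1, Cyp51, Sc5d, Scap, Stard4 and Soat2 in single tumours were chosen for printing after they were seen.

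Other genes of sterol and isoprenoid metabolism were taken from 6 lists, of which 40 of 41 genes were found and tested. By the same edgeR test 0 of 40 passed FDR 0.05, as did 0% of all genes, and DESeq2 called 0 (0.345% of genes tested). At an unadjusted edgeR p under 0.05 there was 1 of 40, against 3.62% of all genes. There were 24 positive and 16 negative fold changes (60% positive, against 48.2% of all genes), with a median of 0.04. These genes spread less than the members, with a median range of 1.63-fold. Erlin2, a membrane protein from the list of SREBP processing and partners, was that 1 gene. It had 22.8, 22.8 and 24.2 CPM in the WT tumours and 27.5, 30.1 and 28.8 in KO (log2 fold change 0.31 ± 0.13, edgeR FDR 0.9997). All 3 KO tumours were above all 3 WT tumours for Erlin2, its relative Erlin1 and the lysosomal lipase Lipa, where 4.15% of all genes were. Erlin1 ranged from 50.2 to 70.9 CPM in the WT tumours and from 74.2 to 93.9 in KO (0.43 ± 0.19). Lipa ranged from 148 to 167 CPM in the WT tumours and from 170 to 212 in KO (0.28 ± 0.18).

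In 4 further lists the gene of smallest p overlapped between genotypes. For LXR factors and efflux it was the LXR gene Nr1h3 (0.34 ± 0.27), and for trafficking and uptake the receptor Lrp1 (-0.44 ± 0.27). Among later sterol enzymes it was Erg28 (0.51 ± 0.26), a scaffold of the C4 demethylation enzymes, with its highest value, 74.5 CPM, in KO replicate 1 and its lowest, 34.0, in WT replicate 2. For acetyl-CoA supply it was the citrate carrier Slc25a1 (0.24 ± 0.21). Acly, which makes cytosolic acetyl-CoA and was singled out after its values were seen, had 108, 88.4 and 408 CPM in the WT tumours and 411, 159 and 368 in KO, high in the tumours where the enzymes were high. Srebf1, the gene of the fatty acid regulator SREBP1, did not share that order, with 227, 231 and 167 CPM in the WT tumours and 123, 115 and 356 in KO.

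**Figure D5:**
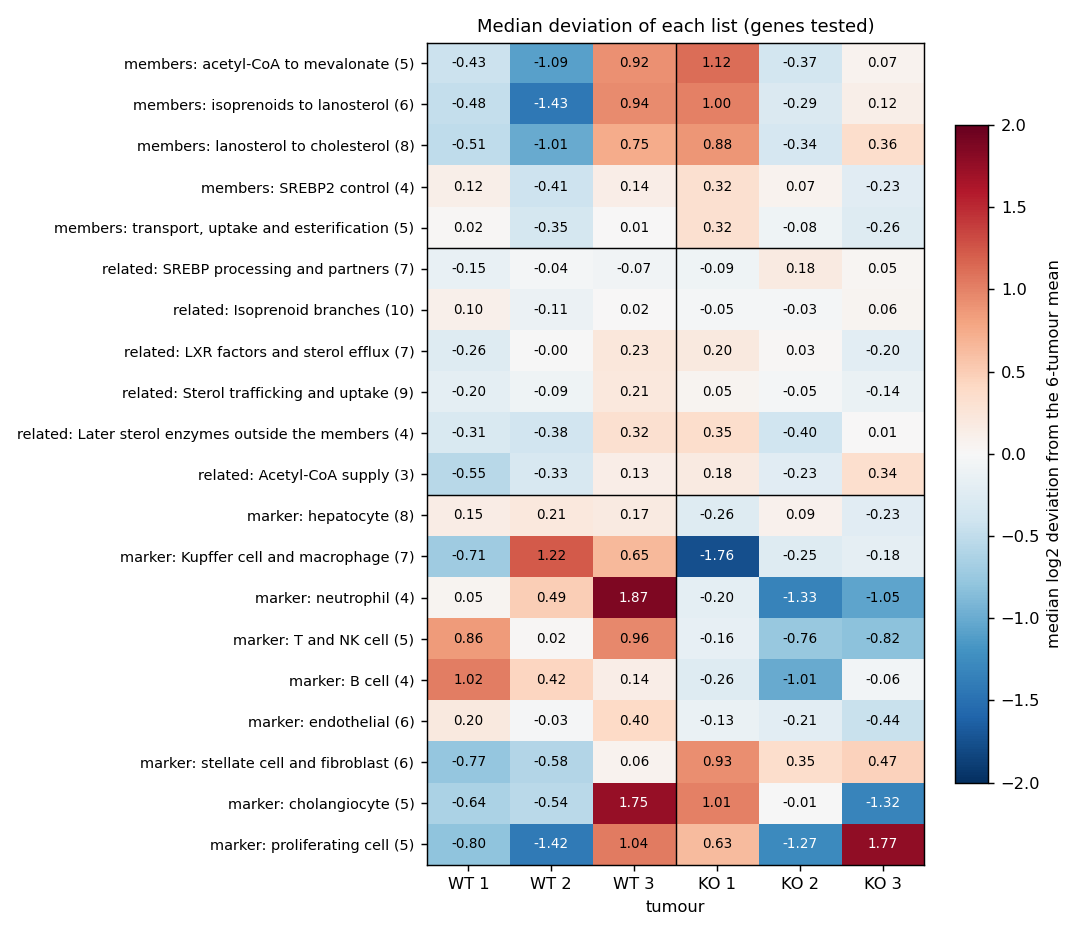
Median log2 deviation from the 6-tumour mean for each group of members, each list of related genes and each list of cell markers, by tumour, with the number of genes tested in brackets. The 3 rows of enzymes run from -1.43 to -1.01 in WT replicate 2 and from 0.88 to 1.12 in KO replicate 1, while the rows of SREBP processing and isoprenoid branches stay between -0.15 and 0.18.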

How the data were processed

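Raw read counts and RPKM values per gene for 6 libraries stand side by side in 1 table that the authors deposited. The tools bcl2fastq, TopHat2 (2.0.6) and HTSeq and the human builds hg19 and GRCh37 are named, without roles, in the submitters' processing notes. The deposited identifiers are mouse Ensembl identifiers, and all 28 members were on the same chromosome in GENCODE M21 (GRCm38), 24 of them with both ends within 1 kb. Printed coordinates are therefore the deposited ones, taken as GRCm38. No source used here states the strand setting. The deposited RPKM values were used only to compare levels between genes.

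Genotypes and replicate numbers came from the sample titles. Deposited counts were tested in R 4.3.3 with edgeR 4.0.16: filterByExpr, TMM factors, the robust quasi-likelihood test, two-sided, and Benjamini-Hochberg adjustment over the 18359 genes kept, with a threshold of FDR 0.05. Normalised CPM are on the TMM-scaled library size, and log2 values have a prior count of 2. The SE of a log2 fold change is its absolute value divided by the square root of the quasi-likelihood F statistic. Alternatives used DESeq2 1.42.0, limma 3.58.1, other factors, filters and designs, and leaving out each library. The procedure was tested on simulated data.

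The members and lists were chosen with earlier results of these data known. Named by rule were Srebf2, Insig1, Insig2, Hmgcs1, Sqle, the 2 members of smallest p in each of 5 role groups and the related gene of smallest p in each of 6 lists. Some pathway genes are not reported here. Of 41 related genes 40 matched, and of 51 marker genes 50 passed the filter.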

Additional observations from a re-analysis of the deposited data

How the results depend on the processing

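The count of members past FDR 0.05 was 0 under every alternative run, as was that of related genes, also at an FDR of 0.1. The smallest adjusted p of a member was 0.3934 with DESeq2 and 0.4458 without WT replicate 3. The median log2 fold change stayed between 0.17 (number-range covariate) and 0.36 (voom with quality weights) outside the fits that leave out libraries, and the positive members between 20 and 25. Leaving out each library moved that number between 11 and 26 and the median between -0.11 and 0.78. Log2 fold changes that changed sign in these fits ran from -0.18 to 1.74 for Hmgcs1, -0.19 to 1.20 for Mvk, -0.20 to 0.77 for Pmvk, -0.62 to 0.84 for Mvd, -0.26 to 1.68 for Idi1, -0.24 to 0.095 for Ggps1, -0.16 to 0.38 for Fdft1, -0.20 to 1.61 for Sqle, -0.15 to 1.54 for Lss, -0.048 to 1.77 for Cyp51, -0.33 to 1.17 for Msmo1, -0.034 to 1.60 for Nsdhl, -0.27 to 0.81 for Hsd17b7, -0.38 to 0.17 for Ebp, -0.44 to 0.024 for Insig2, -0.24 to 0.46 for Srebf2, -0.015 to 0.36 for Scap, -0.088 to 0.61 for Stard4 and -3.84 to 5.19 for Npc1l1. In other fits Srebf2, at -0.0076, was 0.013 with upper-quartile factors, 0.085 with voom, 0.25 with quality weights, 0.014 without the low-count filter and 0.0037 with the number-range covariate. With both WT replicate 3 and KO replicate 1 left out, an alternative added after seeing the data, Srebf2 was 0.29, Ebp 0.12 and Ggps1 0.019, and Ggps1 was also 0.017 with quality weights. The number-range covariate, which sets the numbers opening the sample descriptions under 2000 against those above 3900, gave -0.33 for Mvd, -0.019 for Fdft1, -0.065 for Insig1 and -0.00017 for Stard4. The cause of these changes was not tested. The median deviation of the members in each tumour moved by less than the spread between tumours under other size factors and filters. Npc1l1 was not tested where a CPM of 1 in 3 libraries was required.

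With the replicate number as a block, 0 members passed, 23 were positive, the median was 0.28, Srebf2 was 0.082 and Npc1l1 was -0.041. Over genes, the residuals of tumours with the same number had correlations of -0.29, 0.18 and -0.34. The largest correlation, 0.51, was between WT replicate 3 and KO replicate 1. Residuals from the mean of only 3 tumours depend on one another, so these values neither show nor exclude a pairing by number. The labels do not state one. With 3 tumours per group an exact permutation test of 1 gene cannot go below p = 0.1.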
